A study of Mus musculus with 6 samples.

Results

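The 9 genes described here encode enzymes of the tricarboxylic acid (TCA) cycle: *Cs*, *Idh3a*, *Idh3g*, *Ogdh*, *Suclg1*, *Sdha*, *Sdhb*, *Fh1* and *Mdh2*. They were taken by symbol from a table of read counts for 34573 genes, all 9 were found, and all 9 were among the 14004 genes with enough reads to be tested. The table holds RNA sequencing of hematopoietic stem cells (HSCs), sorted from mouse bone marrow and labelled as lineage-negative CD48- CD150+ cells (the study's HSC gate elsewhere also requires Kit and Sca-1), from Rpl22-/- mice (labelled Rpl22 KO) and Rpl22+/+ mice (labelled as wild type), with 3 libraries of each genotype and no treatment. The mice were young adults backcrossed to C57BL/6, and the Rpl22-/- mice lack the ribosomal protein Rpl22 in all tissues, not in HSCs alone. Whether each library came from a separate animal is not stated, so the p-values measure the spread between these libraries, which may be technical. The comparison asks how the mRNAs of these enzymes differed between Rpl22-/- and Rpl22+/+ HSCs. In bulk samples such as these, a lower level from fewer cells of a type cannot be told apart from less RNA per cell.

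The TCA cycle oxidises acetyl groups in the mitochondrial matrix, passes electrons to the respiratory chain, and supplies carbon skeletons for amino acid, heme and lipid synthesis. Citrate synthase opens it, a chain of dehydrogenases and a ligase carries the carbon from isocitrate to succinate, succinate dehydrogenase links it to the respiratory chain as complex II, and fumarase and malate dehydrogenase return it to oxaloacetate. HSCs are known for a low reliance on oxidative metabolism at rest and for a rise in mitochondrial activity when they divide and differentiate.

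The libraries held between 9321123 and 13385850 reads on genes, the fewest in Rpl22+/+ replicate 3. The labels were checked on *Rpl22* itself, with 449 to 546 reads in the Rpl22-/- libraries and 5031 to 7001 in the Rpl22+/+ libraries. All 8 HSC markers examined were present. Among them *Fgd5* alone was called lower (−0.41, adjusted p = 0.0308, edgeR), where 2.29% of all genes tested were. Without overlap, 3 were lower, an order that 13.6% of all genes showed. The list summed to 2104 to 2302 CPM in Rpl22-/- and 2274 to 2332 CPM in Rpl22+/+ HSCs. CPM are the reads of a gene scaled to a library size shared by all libraries. The gated-out marker *Cd48* was at 4.89 to 7.30 CPM. *Ms4a1*, a B cell marker, and *Cd3e*, a T cell marker, had 0 reads in every library, although the 5-gene B cell list summed to 24.6 to 28.1 CPM in Rpl22-/- and 21.2 to 23.3 CPM in Rpl22+/+ HSCs, nearly all of it *Cd79b*, and the T cell list to 40.7 to 48.7 and 43.8 to 55.5 CPM, nearly all of it *Cd247* and *Lck*. The monocyte list ranged over 204 to 259 and 213 to 228 CPM, the erythroid list over 29.7 to 35.5 and 31.8 to 40.2 CPM with *Car1* called lower (−1.37, adjusted p = 0.0246, edgeR), and the list of cycling-cell genes over 1966 to 2823 and 2182 to 2292 CPM. The 6 megakaryocyte markers summed to 972 to 1236 CPM in Rpl22-/- and 701 to 923 CPM in Rpl22+/+ HSCs. Of the 6, 4 passed the test as higher, where 3.28% of all genes tested did. The 7 neutrophil and granulocyte precursor genes summed to 31.1, 134 and 36.6 CPM in the Rpl22-/- libraries and to 22.4, 8.51 and 29.3 CPM in the Rpl22+/+ libraries, higher in every Rpl22-/- library and far the highest in replicate 2. Of the 6 of them tested, 5 were above 0 and 4 reached an unadjusted p below 0.05 in edgeR, beside 22.3% of all genes. *Camp* was called higher (2.43, adjusted p = 0.0291, edgeR), with most reads in Rpl22-/- replicate 3. The part of these marker differences in the values below was not tested.

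None of the TCA enzyme mRNAs passed the test between the genotypes, and most lay slightly higher in Rpl22-/- HSCs. By the quasi-likelihood test of edgeR, with p-values adjusted by Benjamini-Hochberg over every gene tested and a threshold of 0.05, 0 of the 9 genes were called, where 5.57% of all genes tested were (3.28% as higher and 2.29% as lower in Rpl22-/- HSCs). DESeq2 and limma-voom also called 0 of the 9. At an unadjusted p below 0.05 there were 3, *Sdhb*, *Idh3g* and *Mdh2*, all higher in Rpl22-/- HSCs, and 22.3% of all genes reached that level. The log2 fold change (Rpl22-/- over Rpl22+/+) was above 0 for 8 genes and below 0 for *Fh1*. Its median over the 9 genes was 0.19, with a range of −0.0096 to 0.30, and its median over all genes tested was −0.0068. In 4 genes, *Cs*, *Idh3g*, *Ogdh* and *Sdhb*, every Rpl22-/- library was above every Rpl22+/+ library, an order that 13.3% of all genes showed, while 26.9% were without overlap in either direction and 0 of the 9 in the lower one. With scaling by library size alone, the number of genes above 0 was 6 in place of 8, and the median over the 9 was 0.14. With limma-voom the number was 7.

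**Figure D1:**
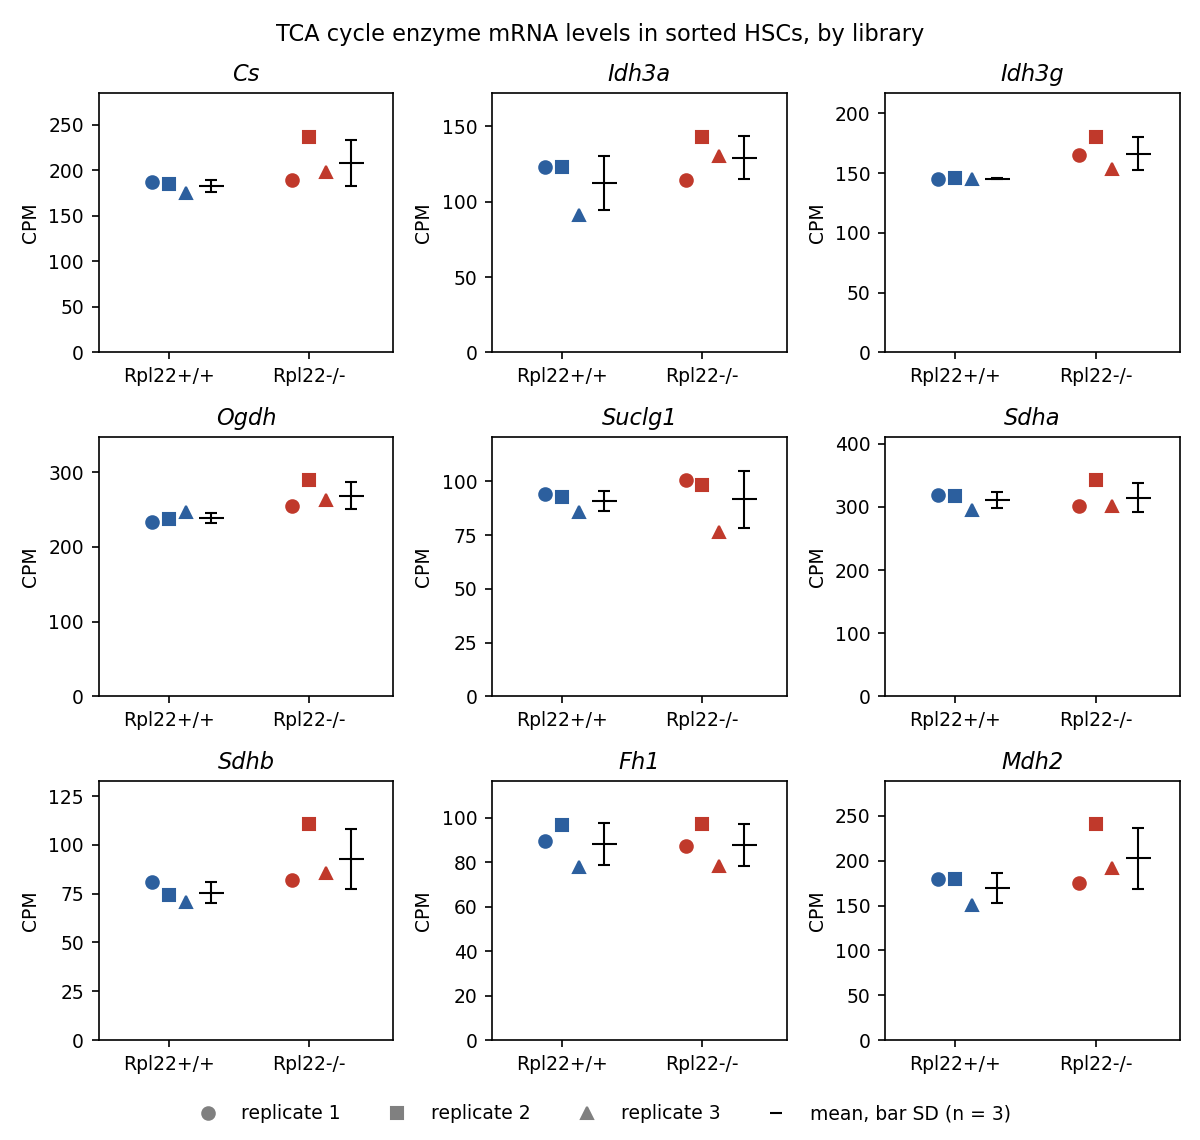
Level of each enzyme's mRNA in CPM (vertical axis from 0, a separate scale in each panel) in 3 Rpl22+/+ libraries (blue) and 3 Rpl22-/- libraries (red). Marker shapes give the replicate and bars the mean ± SD (n = 3). The Rpl22-/- replicate 2 square is the highest point in 8 of the 9 panels.

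*Cs* (ENSMUSG00000005683, chr10:128337734-128362479 of GRCm38, forward strand) encodes citrate synthase, which joins acetyl-CoA to oxaloacetate. It was at 189, 237 and 198 CPM in the Rpl22-/- libraries, in the order of their replicate numbers, and at 187, 185 and 175 CPM in the Rpl22+/+ libraries. The Rpl22+/+ libraries were close together, Rpl22-/- replicate 2 stood above the rest, and Rpl22-/- replicate 1 was only just above the highest Rpl22+/+ library. The mean was 208 ± 25.3 CPM with Rpl22 absent and 182 ± 6.62 CPM in Rpl22+/+ HSCs (SD, n = 3 each). The log2 fold change was 0.19 (standard error, SE, 0.0941, 95% interval −0.0093 to 0.39, adjusted p = 0.247 by edgeR).

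*Idh3a* (ENSMUSG00000032279, chr9:54586334-54604661, forward strand) and *Idh3g* (ENSMUSG00000002010, chrX:73778963-73786897, reverse strand) encode the catalytic alpha and the regulatory gamma subunit of NAD-dependent isocitrate dehydrogenase. *Idh3a* was at 114, 143 and 131 CPM in the Rpl22-/- libraries and at 123, 123 and 91.4 CPM in the Rpl22+/+ libraries, in replicate order. The genotypes overlapped, since Rpl22-/- replicate 1 was below Rpl22+/+ replicates 1 and 2, and Rpl22+/+ replicate 3 was far below its group. *Idh3g* was at 165, 180 and 153 CPM in the Rpl22-/- libraries and at 145, 146 and 145 CPM in the Rpl22+/+ libraries. Here the genotypes did not overlap, and the Rpl22+/+ libraries had an SD of only 0.413 CPM around a mean of 145 CPM, against 13.6 around 166 in Rpl22-/- HSCs. The log2 fold changes of the 2 subunits were nearly equal, at 0.20 for *Idh3a* (SE 0.115, 95% interval −0.043 to 0.44, adjusted p = 0.322) and 0.19 for *Idh3g* (SE 0.0847, 95% interval 0.013 to 0.37, adjusted p = 0.193, edgeR for both). Once trends on length and GC content were taken out of each library they moved apart, to 0.23 for *Idh3a* and 0.12 for *Idh3g*. The log2 ratio of *Idh3g* to *Idh3a* within a library was 0.53, 0.33 and 0.23 for the Rpl22-/- genotype and 0.24, 0.25 and 0.66 for Rpl22+/+. It differed by −0.020 between the genotypes (exact two-sided permutation p = 0.8), and its spread within each genotype was larger than that difference.

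*Ogdh* (ENSMUSG00000020456, chr11:6291633-6356642, forward strand) encodes the thiamine-dependent component of the oxoglutarate dehydrogenase complex, which turns oxoglutarate into succinyl-CoA. It was at 255, 289 and 262 CPM in the Rpl22-/- libraries and at 233, 237 and 246 CPM in the Rpl22+/+ libraries. All Rpl22-/- libraries were above all Rpl22+/+ libraries, and this was the only one of the 9 genes with its lowest value in Rpl22+/+ replicate 1. The means were 269 ± 17.8 and 239 ± 6.70 CPM (SD, n = 3 each), with a log2 fold change of 0.17 (SE 0.0845, 95% interval −0.011 to 0.35, adjusted p = 0.255, edgeR). *Suclg1* (ENSMUSG00000052738, chr6:73248382-73276911, forward strand) encodes the alpha subunit shared by the ATP-forming and GTP-forming succinyl-CoA ligases. It was at 100.4, 98.1 and 76.3 CPM in the Rpl22-/- libraries and at 94.2, 92.9 and 85.5 CPM in the Rpl22+/+ libraries. Rpl22-/- libraries held both its highest value, in replicate 1, and its lowest, in replicate 3. Its log2 fold change was 0.011 (95% interval −0.21 to 0.23, adjusted p = 0.967, edgeR), and it was −0.033 when scaled by library size alone.

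*Sdha* (ENSMUSG00000021577, chr13:74322254-74350280, reverse strand) and *Sdhb* (ENSMUSG00000009863, chr4:140961203-140979193, forward strand) encode the catalytic flavoprotein and the iron-sulfur subunit of succinate dehydrogenase, which is also complex II of the respiratory chain. *Sdhb* is on the same chromosome as *Rpl22*, 11.4 Mb from it. *Sdha* was at 301, 342 and 302 CPM in the Rpl22-/- libraries and 319, 317 and 296 CPM in the Rpl22+/+ libraries. Apart from Rpl22-/- replicate 2, the Rpl22-/- libraries were within the range of the Rpl22+/+ libraries. Its log2 fold change was 0.018 (SE 0.0874, 95% interval −0.17 to 0.20, adjusted p = 0.928, edgeR), and it was −0.027 when scaled by library size alone. *Sdhb* was at 81.8, 110.5 and 85.8 CPM in the Rpl22-/- libraries and at 81.2, 74.5 and 70.6 CPM in the Rpl22+/+ libraries. The genotypes did not overlap, but Rpl22-/- replicate 1 was above Rpl22+/+ replicate 1 by less than 1 CPM. The means were 92.7 ± 15.6 and 75.4 ± 5.34 CPM (SD, n = 3 each), and the log2 fold change of 0.30, or 1.23-fold, was the largest of the 9 (SE 0.110, 95% interval 0.062 to 0.53, unadjusted p = 0.0164, adjusted p = 0.122 in edgeR's fit across all genes). Once trends on length and GC content were taken out it was 0.19, below *Idh3a*, *Cs* and *Mdh2*, and with the length trend alone taken out it was 0.24, just below *Mdh2*.

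The ratio of the 2 complex II subunits compares them within each library, where the scaling between libraries cancels. Trends on length and GC content do not cancel in it. Once both were taken out, the log2 fold changes were 0.19 for *Sdhb* and 0.019 for *Sdha*, and the ratio was not computed that way. The log2 ratio of *Sdhb* to *Sdha* was −1.87, −1.62 and −1.81 for the Rpl22-/- genotype and −1.97, −2.08 and −2.06 for Rpl22+/+. Every Rpl22-/- library had relatively more *Sdhb* than every Rpl22+/+ library. The difference between the genotypes was 0.27 on the log2 scale, and its exact two-sided permutation p was 0.1, the smallest that 3 libraries against 3 can give. It was 0.20 without Rpl22-/- replicate 2.

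*Sdha* was also the only gene of the group whose promoter held any of 3 motifs searched, and its matches are shown because they repeat within a short stretch. The windows were the 250 bases before to 50 bases after each RefSeq start (GRCm38.p6), available for 8 of the 9 genes as 13 windows, with *Idh3a* not matched. The core motif of NRF1, 10 letters read with any base at the sixth, occurred on either strand in 4.60% of 32851 windows across the genome and in 1 window of the TCA enzymes, that of *Sdha*, with 3 matches that do not overlap. TCAAGGTCA, bound by estrogen-related receptors, and CCGGAAGTG, bound by GABP, occurred in 0.423% and 2.03% of all windows and in 0 of the 13. In the 3 stretches of 30 bases of the *Sdha* promoter below, read 5′ to 3′ on the reverse strand of chromosome 13, capitals mark the match and positions count from the RefSeq start.
*Sdha* −98 to −89, chr13:74350319-74350348: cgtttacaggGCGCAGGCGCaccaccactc
*Sdha* −55 to −46, chr13:74350276-74350305: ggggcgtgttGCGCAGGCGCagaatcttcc
*Sdha* −10 to −1, chr13:74350231-74350260: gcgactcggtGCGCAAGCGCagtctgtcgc
The gene model behind the position of *Sdha* given above begins at 74350280 on this strand, before the RefSeq start, so the last of these stretches lies inside it. A match here is a description of these letters and not of binding.

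*Fh1* (ENSMUSG00000026526, chr1:175600374-175625635, reverse strand) encodes fumarase, which hydrates fumarate to malate. It was at 87.4, 97.0 and 78.3 CPM in the Rpl22-/- libraries and at 89.5, 96.6 and 77.8 CPM in the Rpl22+/+ libraries. Libraries with the same number had nearly the same value, so the genotypes overlapped over almost the whole range. The log2 fold change was −0.0096 (SE 0.102, 95% interval −0.23 to 0.21, adjusted p = 0.969, edgeR). *Mdh2* (ENSMUSG00000019179, chr5:135778480-135790398, forward strand) encodes mitochondrial malate dehydrogenase, which closes the cycle. It was at 176, 241 and 192 CPM in the Rpl22-/- libraries and at 179, 180 and 150 CPM in the Rpl22+/+ libraries. Rpl22-/- replicate 1 was within the Rpl22+/+ range, Rpl22-/- replicate 2 was far above it, and Rpl22+/+ replicate 3 was far below the others. The means were 203 ± 33.8 and 170 ± 17.0 CPM (SD, n = 3 each), with a log2 fold change of 0.26, or 1.19-fold (SE 0.113, 95% interval 0.017 to 0.50, unadjusted p = 0.0374, adjusted p = 0.193 in edgeR's fit across all genes).

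The 9 genes thus fell into 6 with a log2 fold change from 0.17 to 0.30, at citrate synthase, isocitrate dehydrogenase, oxoglutarate dehydrogenase, the iron-sulfur subunit of complex II and malate dehydrogenase, and 3 within 0.02 of 0, at succinyl-CoA ligase, the flavoprotein of complex II and fumarase. This split was made after the values were seen and was not tested. The intervals of the 3 genes near 0 reach upward to 0.23 for *Suclg1*, 0.20 for *Sdha* and 0.21 for *Fh1*, so they cover the fold changes of *Cs*, *Idh3a*, *Idh3g* and *Ogdh*. Each of the 9 genes had between 679 and 4159 reads in each library.

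The libraries of each genotype were not alike. Rpl22-/- replicate 2 had the highest level of any library for 8 of the 9 genes, all but *Suclg1*, and Rpl22+/+ replicate 3 had the lowest for 7. The SD was larger in Rpl22-/- than in Rpl22+/+ HSCs for 7 of the 9. Summed over the 9 genes, the level was 1469, 1737 and 1479 CPM in the Rpl22-/- libraries and 1452, 1452 and 1337 CPM in the Rpl22+/+ libraries. The means were 1562 ± 152 and 1414 ± 66.2 CPM (SD, n = 3 each), a ratio of 1.10, and the sum in Rpl22-/- replicates 1 and 3 was close to that in Rpl22+/+ replicates 1 and 2. The 9 mRNAs together took 0.138% to 0.167% of the reads on genes. The same 2 libraries were at the ends of other measures: mitochondrially encoded genes took 3.83% of the reads on genes in Rpl22-/- replicate 2, the most, and 3.06% in Rpl22+/+ replicate 3, the least, and reads not on a gene were 58.6% and 60.9%, the least and the most. The part of these differences in the enzymes' levels was not tested.

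**Figure D2:**
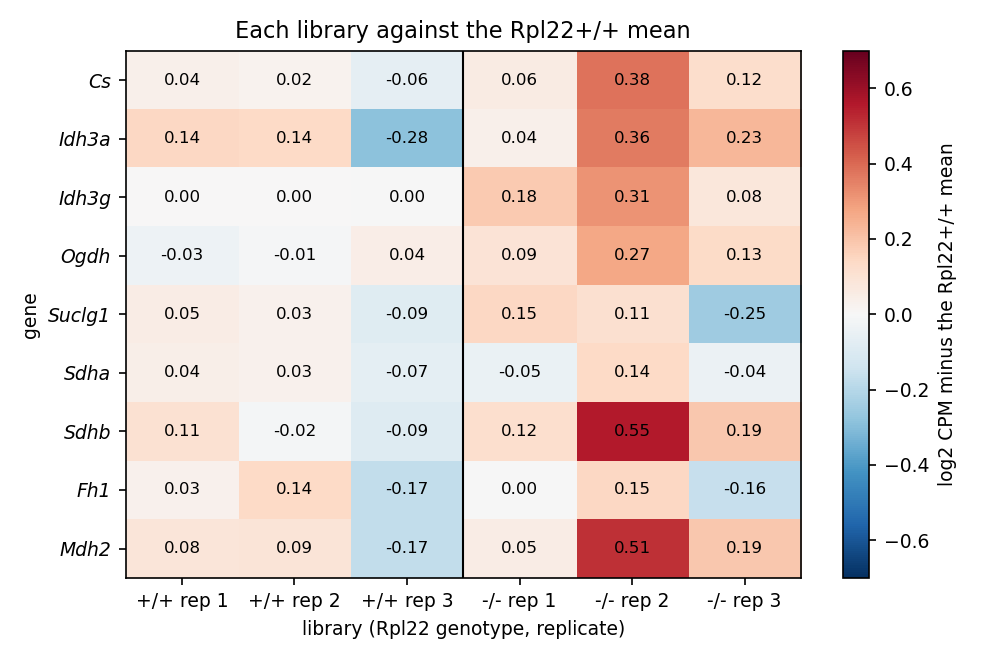
Log2 CPM of each gene (rows, in the order of the cycle) in each library (columns) minus the mean of the 3 Rpl22+/+ libraries, with the value printed in each cell and red for higher. The column of Rpl22-/- replicate 2 is above 0 in all 9 rows, with its largest values for *Sdhb* (0.55) and *Mdh2* (0.51).

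Rpl22-/- replicate 2 is also the library with 134 CPM of neutrophil and granulocyte precursor genes. That list was led by *Mpo* and *Elane*, granule genes of early granulocyte precursors, with 1218 and 243 reads there and 19 to 225 and 4 to 49 reads in the other 5 libraries. *Camp*, *Ltf*, *S100a8* and *S100a9* had 31, 22, 21 and 80 reads in it. In the other 5 libraries they had 2 to 47, 1 to 43, 7 to 68 and 10 to 164. *Ly6g*, a marker of mature neutrophils, had 0 to 3 reads in every library, too few to set this one apart. The cycling-cell genes summed to 2662 CPM in the same library, and to 2823 CPM in Rpl22-/- replicate 3. The part of these transcripts in the levels of the TCA enzymes was not tested. Without this library, the median log2 fold change over the 9 genes was 0.11, 6 of the 9 were above 0, and the values of *Sdhb* and *Mdh2* were 0.15 (adjusted p = 0.418) and 0.12 (adjusted p = 0.570, edgeR). Without Rpl22-/- replicate 1, the lowest of the Rpl22-/- libraries for 6 genes, 2 were called: *Sdhb* at 0.38 (adjusted p = 0.0316) and *Mdh2* at 0.35 (adjusted p = 0.0409, edgeR), in a fit that called 12.1% of all genes tested. Leaving out any of the other 4 libraries called 0.

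**Figure D3:**
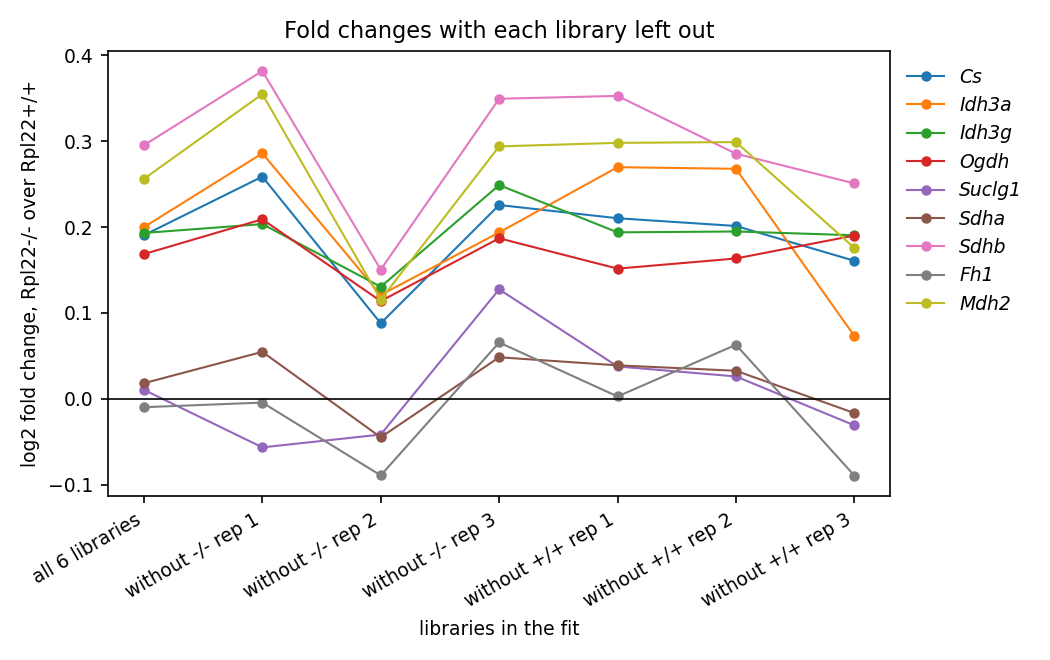
Log2 fold change of each gene (vertical axis) with all 6 libraries and with each library left out in turn (horizontal axis), where a line joins the values of 1 gene. Leaving out Rpl22-/- replicate 2 brings *Cs*, *Idh3a*, *Idh3g*, *Ogdh*, *Sdhb* and *Mdh2* to between 0.09 and 0.15, and *Suclg1*, *Sdha* and *Fh1* below 0.

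To compare the genes with each other, the level was divided by the length of each gene's joined exons, which gives CPM per kilobase. In Rpl22+/+ HSCs the order was *Sdha* at 75.3 ± 3.16, *Idh3g* at 53.8 ± 0.153, *Mdh2* at 47.6 ± 4.76, *Ogdh* at 43.8 ± 1.23, *Sdhb* at 33.7 ± 2.38, *Cs* at 31.5 ± 1.15, *Fh1* at 25.9 ± 2.80, *Idh3a* at 22.1 ± 3.58 and *Suclg1* at 19.7 ± 1.01 CPM per kilobase (SD, n = 3). The library ranges of *Mdh2* and *Ogdh*, of *Sdhb* and *Cs*, of *Fh1* and *Idh3a*, and of *Idh3a* and *Suclg1* overlapped, so those neighbours are not told apart by these libraries. *Sdha* was above *Idh3g*, *Idh3g* above *Mdh2*, *Ogdh* above *Sdhb* and *Cs* above *Fh1* in every Rpl22+/+ library. The order of the means was the same in Rpl22-/- HSCs, from 76.3 ± 5.68 for *Sdha* to 19.8 ± 2.88 CPM per kilobase for *Suclg1*. Per length of the longest transcript instead, *Mdh2* was second at 106 and *Sdhb* at 61.2 CPM per kilobase in Rpl22+/+ HSCs, *Ogdh*, at 57.9, came after *Sdhb* and *Cs*, and *Idh3a*, at 43.5, came before *Fh1*, at 33.4. In Rpl22-/- HSCs the same length put *Mdh2*, at 126, above *Sdha*, at 109.

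The rest of the cycle was taken as 8 other mitochondrial genes of its enzymes: *Idh3b*, *Idh2*, *Dlst*, *Dld*, *Sucla2*, *Suclg2*, *Sdhc* and *Sdhd*. Their log2 fold change was above 0 for 2 and below 0 for 6, with a median of −0.029. EdgeR, DESeq2 and limma-voom each called 0 of them, and 0 reached an unadjusted p below 0.05 in edgeR. *Idh2*, the NADP-dependent mitochondrial isocitrate dehydrogenase, was at 188, 220 and 181 CPM in the Rpl22-/- libraries and 175, 180.3 and 179.8 CPM in the Rpl22+/+ libraries. The genotypes did not overlap, although Rpl22-/- replicate 3 was above the Rpl22+/+ libraries by only about 1 CPM, and its log2 fold change was 0.14 (SE 0.0896, 95% interval −0.050 to 0.33, adjusted p = 0.381 by edgeR).

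The subunit partners of the enzymes had values of their own. *Idh3b*, the beta subunit of NAD-dependent isocitrate dehydrogenase, had a log2 fold change of −0.059 (95% interval −0.23 to 0.12, adjusted p = 0.728, edgeR), beside 0.20 and 0.19 for *Idh3a* and *Idh3g*. *Sdhc* and *Sdhd*, the membrane anchors of complex II, were at −0.0058 and −0.053, beside 0.30 for *Sdhb* and 0.018 for *Sdha*. *Dlst* and *Dld*, the other components of the oxoglutarate dehydrogenase complex, were at 0.096 and −0.16 (adjusted p = 0.533 and 0.320, edgeR), beside 0.17 for *Ogdh*. *Sucla2* and *Suclg2*, the beta subunits that pair with *Suclg1*, were at −0.15 (adjusted p = 0.482, edgeR) and −0.0038. Differences between the subunits of a complex were tested only for the 2 ratios given above.

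**Figure D4:**
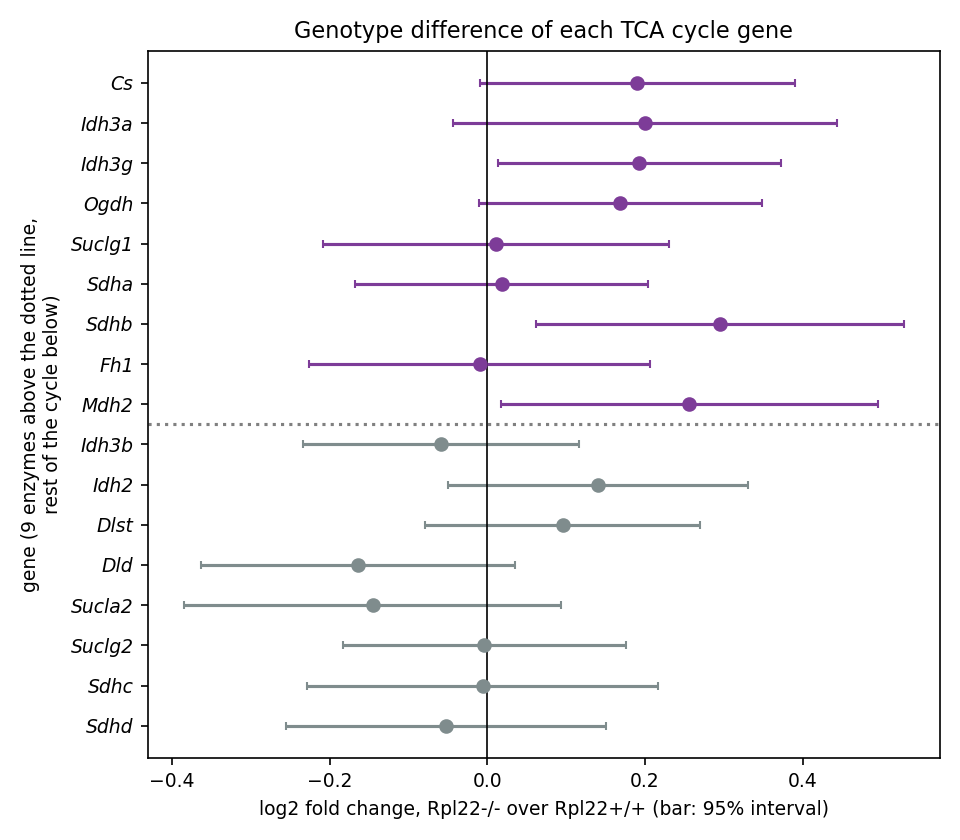
Log2 fold change (horizontal axis, Rpl22-/- over Rpl22+/+) with its 95% interval from edgeR for the 9 enzymes described (purple, top) and the 8 other genes of the cycle (grey, below the dotted line). *Sdhb*, *Idh3g* and *Mdh2* are the genes drawn whose interval lies above 0.

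Complex II assembly and the lipoyl cofactor of oxoglutarate dehydrogenase depend on accessory proteins, and 8 of their genes were examined. Of these, 4 were above 0 and 4 below, the median log2 fold change was 0.036, and edgeR called 0, with 3 at an unadjusted p below 0.05, a level that 22.3% of all genes reached. *Sdhaf1*, which helps mature the iron-sulfur subunit encoded by *Sdhb*, was at 16.2, 19.8 and 18.2 CPM in the Rpl22-/- libraries and 13.7, 13.5 and 11.1 CPM in the Rpl22+/+ libraries. The genotypes did not overlap, and its log2 fold change was 0.49 (SE 0.147, adjusted p = 0.0606, edgeR). *Nfu1*, an iron-sulfur cluster carrier needed for lipoylation and complex II, was at 0.29 (adjusted p = 0.0863). *1110058L19Rik*, also named *Sdhaf4*, which acts on the flavoprotein subunit encoded by *Sdha*, was at −0.41 (adjusted p = 0.185). DESeq2, which called 1056 of 14004 genes, called *Sdhaf1* alone in this list, at 0.50 (adjusted p = 0.0476), and limma-voom called 0. Without Rpl22-/- replicate 1, edgeR called *Sdhaf1* at 0.57 (adjusted p = 0.0262) and *1110058L19Rik* at −0.58 (adjusted p = 0.0480), in a fit that called 12.1% of all genes tested.

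Genes for pyruvate entry comprised the mitochondrial pyruvate carrier, the pyruvate dehydrogenase complex and its kinases and phosphatases. Of 13, 6 were above 0 and 7 below, with a median log2 fold change of −0.017. EdgeR, DESeq2 and limma-voom each called 0, and 3 reached an unadjusted p below 0.05 in edgeR, again beside 22.3% of all genes. These were *Mpc1*, a subunit of the carrier, at 0.35 (adjusted p = 0.0985), and *Pdk2* and *Pdk3*, kinases that inhibit pyruvate dehydrogenase, at 0.40 and 0.23 (adjusted p = 0.129 and 0.150, edgeR).

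Of the 5 lists around the cycle, the genes that feed or drain it were the only one with calls by edgeR, 2 of 13, where 5.57% of all genes tested were called. At an unadjusted p below 0.05 there were 5 of the 13, 3 higher and 2 lower, beside 22.3% of all genes. The median of this list was −0.026, with 5 above 0 and 8 below. *Got2*, the mitochondrial aspartate aminotransferase that interconverts oxaloacetate and aspartate, was at 171, 231 and 223 CPM in the Rpl22-/- libraries and 158, 152 and 146 CPM in the Rpl22+/+ libraries. It rose without overlap, with a log2 fold change of 0.46 (SE 0.104, adjusted p = 0.0211, edgeR). *Slc25a12*, an aspartate-glutamate carrier of the malate-aspartate shuttle in which *Got2* and *Mdh2* also act, was at 92.0, 95.4 and 100 CPM in the Rpl22-/- libraries and 74.8, 80.4 and 77.7 CPM in the Rpl22+/+ libraries. It rose by 0.30 (SE 0.0827, adjusted p = 0.0440, edgeR), again with no overlap. *Me2*, a mitochondrial malic enzyme that turns malate into pyruvate, was at 72.2, 87.6 and 80.1 CPM in the Rpl22-/- libraries and 69.5, 71.6 and 57.4 CPM in the Rpl22+/+ libraries. It did not overlap either, but it did not pass the test, with a log2 fold change of 0.27 (SE 0.103, adjusted p = 0.133, edgeR). *Me2* was called without Rpl22-/- replicate 1 (0.34, adjusted p = 0.0412, edgeR), in a fit that called 12.1% of all genes tested. With length and GC trends removed and a replicate block it was also called (0.36, adjusted p = 0.0469, edgeR), where 530 of 14004 genes were. *Glud1*, glutamate dehydrogenase, which forms oxoglutarate from glutamate, was at 156, 173 and 159 CPM in the Rpl22-/- libraries and 187, 184 and 182 CPM in the Rpl22+/+ libraries. It was lower in every Rpl22-/- library and did not pass the test either, at −0.18 (SE 0.0814, adjusted p = 0.200, edgeR). *Gls2* was also lower without overlap and did not pass, at −0.89 (SE 0.347, 95% interval −1.63 to −0.15, adjusted p = 0.141, edgeR), from only 1.14 to 3.53 CPM per library. Neither *Got2* nor *Slc25a12* kept its call without Rpl22-/- replicate 2 or 3, or without any of the 3 Rpl22+/+ libraries, where *Got2* was at 0.38 to 0.48 (adjusted p = 0.0669 to 0.107, edgeR) and *Slc25a12* at 0.27 to 0.33 (adjusted p = 0.0791 to 0.193, edgeR). *Slc25a12* was at 0.26 (adjusted p = 0.0745, edgeR) with scaling by library size alone. Other genes of the malate-aspartate shuttle were near or below 0 or only slightly above it. *Slc25a13*, *Slc25a11*, *Mdh1* and *Got1* were at −0.026, −0.044, −0.10 and 0.12, and none was called (adjusted p = 0.584 to 0.925, edgeR).

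The cytosolic counterparts of cycle enzymes were mostly below 0, with 1 of 6 above and a median log2 fold change of −0.10. EdgeR, DESeq2 and limma-voom called 0, and 2 reached an unadjusted p below 0.05 in edgeR, with the same 22.3% over all genes. *Me1*, cytosolic malic enzyme, was at −0.66 (adjusted p = 0.123) from 2.96 to 5.53 CPM per library. *Idh1*, cytosolic isocitrate dehydrogenase, was at −0.36 (adjusted p = 0.199), and at −0.62 (adjusted p = 0.00607, edgeR) without Rpl22-/- replicate 1, the one Rpl22-/- library within the Rpl22+/+ range. The fit without that library called 12.1% of all genes tested. *Mdh1*, the cytosolic partner of *Mdh2*, was at −0.10 (adjusted p = 0.584, edgeR), beside 0.26 for *Mdh2*.

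**Figure D5:**
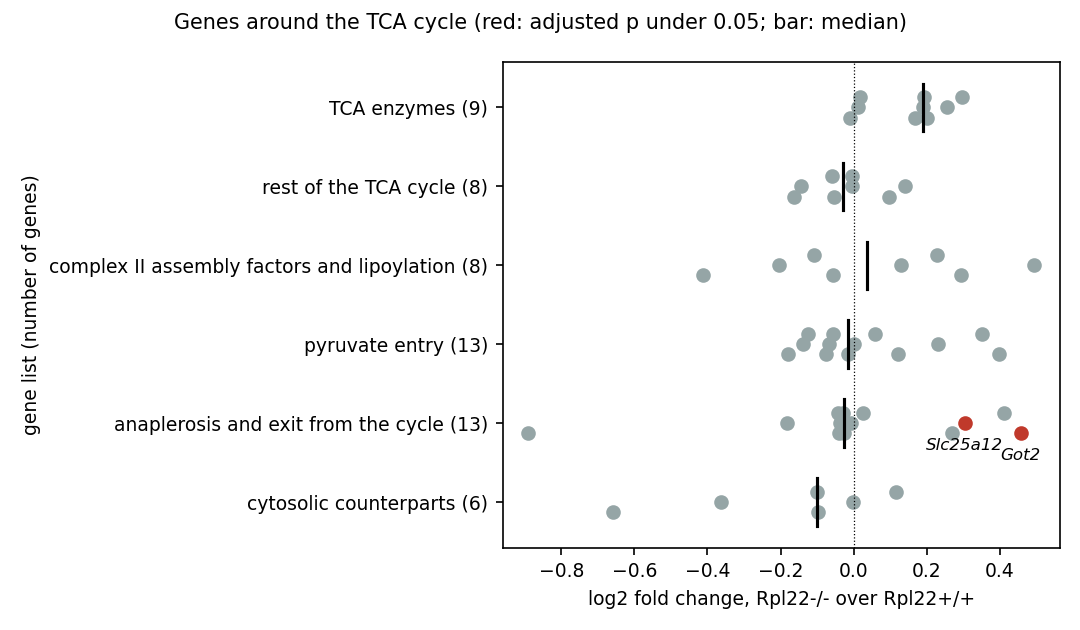
Log2 fold change (horizontal axis, Rpl22-/- over Rpl22+/+) of each gene in the lists around the cycle (rows, with the number of genes), with a black bar at each list's median. Red points passed an adjusted p of 0.05 in edgeR, and the medians run from −0.10 for the cytosolic counterparts to 0.19 for the 9 enzymes.

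Among 6914 genes outside these lists with an average log2 CPM of at least 5, the 3 whose pattern over the 6 libraries was most like the mean pattern of the 9 enzymes were *Gps1*, *Nop16* and *Galk2*. Likeness was the root-mean-square difference between log2 CPM values centred on each gene's mean, and it was 0.0171, 0.0173 and 0.0233. For the 9 enzymes it ran from 0.0397 for *Cs*, the closest, to 0.133 for *Suclg1*, the furthest. The 3 genes were picked as the closest of 6914, so small differences from the mean pattern are built into the choice. Their highest and lowest libraries and their fold changes, given next, largely follow from it too. All 3 were highest in Rpl22-/- replicate 2 and lowest in Rpl22+/+ replicate 3. Their log2 fold changes were 0.13, 0.14 and 0.17, and edgeR called none of the 3 (adjusted p = 0.454, 0.460 and 0.397).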

How the data were processed

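HSC RNA was made into poly(A)-selected TruSeq libraries, 3 per genotype. The authors checked reads with FastQC, aligned them to mm10 with TopHat2 2.1.1 and deposited HTSeq read counts per gene, as whole numbers without normalization. The annotation and strand setting behind the counts are not given in the sources used here, so reads of a gene and an antisense partner cannot be told apart. HTSeq's lines for reads not on a gene (58.6% to 60.9% per library) were left out of library sizes and tests. Depth on genes is given with the results, and each precision rests on 3 libraries per genotype.

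Genes were filtered by filterByExpr (minimum count 10) of edgeR 4.0.16 under R 4.3.3, which left 14004. TMM scaling and the quasi-likelihood test followed, with Benjamini-Hochberg adjustment over all 14004 and a threshold of 0.05. CPM use the TMM-scaled library size, and intervals use the moderated degrees of freedom. Subunit ratios are log2 of CPM plus 0.5, compared by an exact permutation test. Alternatives were RLE scaling, library size alone, DESeq2 1.42.0, limma-voom (limma 3.58.1), no filter, at least 10 counts in every sample, a replicate block, removal of each library's trends on gene length and GC content (lowess, span 0.3), and each library left out. In simulated counts for these genotypes, 13868 genes were tested. Of 199 changed by 1.5 on the log2 scale, 95.5% were called, as were 6 unchanged genes. The log2 fold changes of the TCA enzymes were far smaller, the largest 0.30 for *Sdhb*. Changes of that size were not simulated, so the chance of calling them was not tested.

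Positions and lengths came from GENCODE M21 on GRCm38 (mm10), where 30973 of 34573 symbols matched. No exon of the 9 genes overlapped another gene's exon, and BLAST 2.17.0 found no other transcript with at least 95% identity over at least 100 bases. The genes named are *Rpl22*, the 9 enzymes, the called genes and 3 smallest p-values of each related list, and the 3 genes most like the 9 in pattern. Other subunits of the 9 enzymes' complexes, *Glud1*, *Gls2*, *Slc25a11*, *Slc25a13*, *Got1* and the markers in the text were named after their values were seen. Some genes that belong to these lists are not reported here, and list counts leave them out. The 9 genes and the lists were chosen with earlier results of these data known. Per-sample columns not used numbered 0. Tables and plots were made with pandas 2.3.3, numpy 2.4.6 and matplotlib 3.10.9 in Python 3.11.15.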

Additional observations from a re-analysis of the deposited data

How the results depend on the processing

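The log2 fold changes of *Cs*, *Idh3a*, *Idh3g*, *Ogdh*, *Sdhb* and *Mdh2* stayed above 0 under all 16 alternatives, and the median over the 9 enzymes stayed between 0.11 and 0.21. *Suclg1* was −0.033 with library size alone, −6e-04 with limma-voom and −0.056 to 0.13 with single libraries left out. *Sdha* was −0.027 with library size alone and −0.045 to 0.055 with single libraries left out, and *Fh1* was −0.089 to 0.066 with single libraries left out. The ratio of *Idh3g* to *Idh3a* ranged from −0.10 to 0.12 in the same way, above 0 without Rpl22-/- replicate 3 or Rpl22+/+ replicate 3, and that of *Sdhb* to *Sdha* from 0.20 to 0.32. Without a filter on low counts, 1 of the 9 enzymes was called (*Sdhb*, adjusted p = 0.0375 from edgeR), and with single libraries left out 0 to 2. The fit without the filter called 1422 of the 20635 genes it tested, against 780 of 14004 in the main fit. Over all genes, 502 were called with length and GC trends removed, and 127 (without Rpl22-/- replicate 3) to 1720 (without Rpl22-/- replicate 1) with single libraries left out. With library size alone, 369 genes were called higher and 481 lower, against 459 and 321 with TMM. Among genes that feed or drain the cycle, 1 was called with library size alone, and 3 with length and GC trends removed and the replicate block. In the assembly and lipoylation list 1 was called by DESeq2 and 1 without the filter. With single libraries left out, calls ranged from 0 to 2 in assembly and lipoylation, 0 to 3 among genes that feed or drain the cycle and 0 to 1 among the cytosolic counterparts, the highest count in each case without Rpl22-/- replicate 1. The cause of these changes was not tested.

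Pairing by replicate number was not evident: the correlations of same-numbered libraries were −0.10, 0.055 and 0.045, and not every library correlated best with its own number. With 3 libraries per genotype, these values cannot exclude that same-numbered libraries were handled together. With the replicate block, 904 genes were called against 780, with 0 of the 9 enzymes and 2 of the genes that feed or drain the cycle. Each fold change rests on 3 libraries per genotype, with at least 679 reads per enzyme and library.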
